A study of Homo sapiens with 24 samples.

Results

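The comparison described is that of PANC-1 cells in a rotating capillary container (DRCC, dual-axis) at 1 rpm with the same cells in flat culture (2D). PANC-1 is a human epithelial line derived from carcinoma of the pancreas duct. The members were taken from the sample labels: 3 libraries labelled DRCC at 1 rpm and 3 labelled 2D, which are 6 of the 24 RNA sequencing libraries of the series. The other libraries used here are 3 of PANC-1 at 30 rpm in the DRCC, 3 of PANC-1 in AggreWell microwells, and 3 each of HEK293T, a transformed embryonic kidney line, at 1 rpm and in 2D. No allele, agent or drug is given for any of these groups, and neither culture time nor medium is stated. Each line is a single established cell line, and whether the replicates came from separate cultures is not recorded. P-values therefore measure only the library-to-library spread, which could be technical. Cell arrangement, container and rotation changed together between 1 rpm and 2D and cannot be told apart. These are bulk RNA libraries, in which fewer cells of a kind and less RNA per cell cannot be told apart.

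In the DRCC cells grow as spheroids that turn slowly about a pair of axes, whereas in 2D they attach and spread. Attachment, spreading and growth factor supply are known to feed into immediate early transcription factors, the YAP/TAZ and SRF pathways that read cell tension, and the E2F-driven entry into S phase. Pancreatic duct carcinoma cells divide fast, rely on glycolysis and carry active growth factor signalling.

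The PANC-1 libraries held 34018140 to 36656959 fragments at 1 rpm and 38061349 to 39556154 in 2D, so the 1 rpm libraries were the shallower ones. Across genes (not independent replicates), Pearson's r of log2 values was 0.998 between libraries at 1 rpm and 0.928 between a library at 1 rpm and one in 2D. All 12 PANC-1 markers had fragments in both formats, with a summed level of 3660.0 to 3800.0 FPKM at 1 rpm and 4280.0 to 4580.0 FPKM in 2D. FPKM is fragments per kilobase of transcript, scaled to library depth. Of 5 acinar markers in the table, 4 were at 0 in all 3 libraries of each format, and of 3 islet markers, 2 at 1 rpm and 1 in 2D. Of 5 leukocyte markers 3 were at 0 at 1 rpm and 1 in 2D, with sums of 0.286 to 0.831 FPKM at 1 rpm and 0.601 to 1.14 FPKM in 2D. The 6 fibroblast markers summed to 18.2 to 19.1 FPKM at 1 rpm and 12.6 to 13.5 FPKM in 2D, the 5 endothelial ones to 1.6 to 1.84 FPKM at 1 rpm and 4.28 to 4.68 FPKM in 2D, and 8 HEK293T markers to 21.9 to 23.2 FPKM at 1 rpm and 17.1 to 18.2 FPKM in 2D. Mitochondrially encoded genes took 2.31% to 2.45% of fragments at 1 rpm and 4.10% to 4.68% in 2D. The part of depth, marker levels and mitochondrial share in the results was not tested.

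Of 26450 genes in the table, 11142 passed a filter of at least 1 FPKM in at least 3 of the 6 libraries and were tested with limma on log2(FPKM + 1). Log2 changes are therefore on that scale, are given ± SE with n = 3 per format, and understate the change of low genes; a single value in parentheses after a gene symbol is its log2 change. At an adjusted p under 0.05, 9598 genes were called (86.1%), 5794 higher at 1 rpm (52.0%) and 3804 lower (34.1%). At least 2-fold changes numbered 1209 higher (10.9%) and 431 lower (3.87%). The groups did not overlap for 9693 genes (87.0%), so a call or a lack of overlap is the usual case here and the size of a change carries more information. The median log2 change of all genes tested was 0.15, against which every list median below is to be read. Median-ratio scaling gave 4423 higher and 5064 lower calls, and quantile normalization 4640 higher and 4802 lower. Counts over a gene list cover the members that passed the filter. A member that passed only because it reached 1 FPKM in 1 format had to differ, so these counts describe the list and do not test it.

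**Figure D1:**
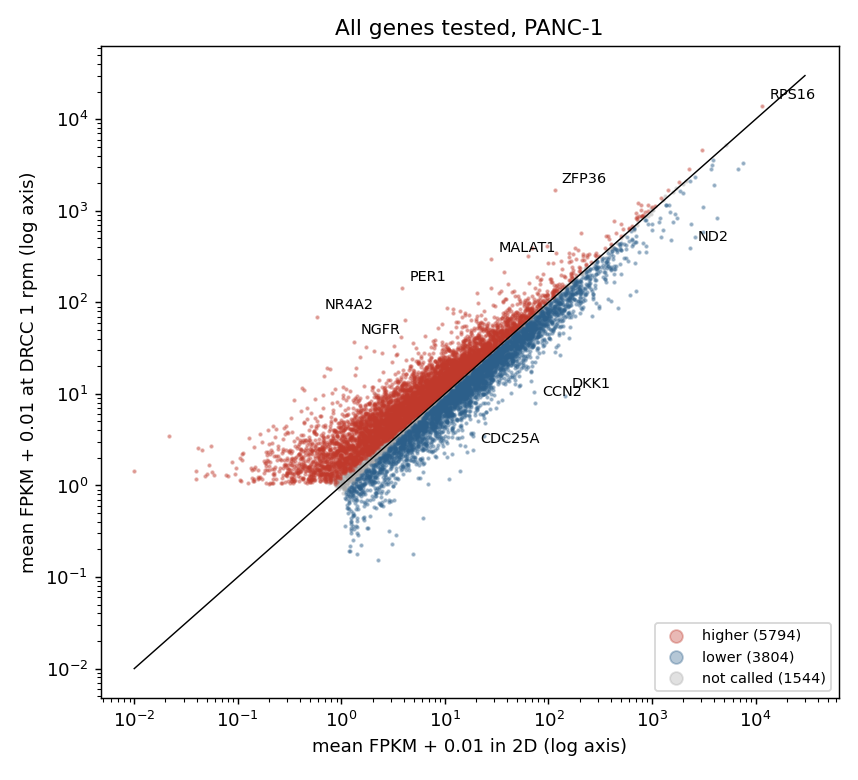
Mean FPKM + 0.01 of each of the 11142 genes tested at DRCC 1 rpm (vertical axis) against 2D (horizontal axis), both on log axes, with the line of equal level; red points were called higher at 1 rpm, blue lower and grey neither. Genes above the line at low levels outnumber those below it, and NR4A2, PER1 and NGFR lie far above it while DKK1, CCN2 and CDC25A lie below.

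Low genes were more often higher at 1 rpm and abundant genes more often lower. Of 3818 genes with a mean under 5 FPKM over the 6 libraries, 2389 were higher and 806 lower, with a median log2 change of 0.36. Of 6073 genes between 5 and 50 FPKM, 3065 were higher and 2228 lower, with a median of 0.12. Of 1251 genes at 50 FPKM or more, 340 were higher and 770 lower, with a median of -0.24. Transcript length, as recovered from the values, moved with the change as well. Genes under 1500 bases had a median of -0.07 (n = 1226) and those of 6000 bases or more a median of 0.29 (n = 3102). The part of level and length in the results below was not tested.

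Among the genes ranked by size of change, those higher at 1 rpm were led by NR4A2, PER1, NGFR, ZFP36 and NR1D1, and those lower by DKK1, CCN2, FEN1, NCOA5 and ND2. NR4A2, an orphan nuclear receptor of the immediate early class, was at 69.7, 68.2 and 71.9 FPKM at 1 rpm, against 0.736, 0.523 and 0.468 FPKM in 2D. The groups were far apart, and every 1 rpm library lay above every 2D library (log2 change 5.5 ± 0.06, adjusted p = 3.6e-11). NR4A2 passed the filter only through the 1 rpm libraries, so it had to be separate. NGFR, the low-affinity neurotrophin receptor of the TNF receptor superfamily, was at 37.2, 35.9 and 38.9 FPKM at 1 rpm, against 1.14, 1.49 and 1.29 FPKM in 2D. KLHL24, a substrate adaptor of ubiquitin ligases that binds keratin, was at 15.4, 16.4 and 15.3 FPKM at 1 rpm, against 0.587, 0.586 and 0.836 FPKM in 2D (log2 change 3.32 ± 0.07, adjusted p = 2.6e-10). In both genes the 1 rpm libraries lay together, well above all 2D libraries. KLHL24 passed the filter only through the 1 rpm libraries, so its formats had to be separate. TSC22D3, the glucocorticoid-induced leucine zipper protein, was at 28.7, 27.1 and 28.6 FPKM at 1 rpm, against 2.34, 2.31 and 2.67 FPKM in 2D (log2 change 3.08 ± 0.05, adjusted p = 9.8e-11). ICAM5, an adhesion protein of the immunoglobulin superfamily, was at 18.8, 19 and 20.1 FPKM at 1 rpm, against 1.15, 1.26 and 1.72 FPKM in 2D (log2 change 3.1 ± 0.08, adjusted p = 1e-09). The 2D libraries of ICAM5 spread more widely in proportion than its 1 rpm libraries, and the formats stayed apart.

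On the lower side, DKK1, a secreted Wnt inhibitor, was at 9.77, 10.1 and 8.81 FPKM at 1 rpm, against 138, 143 and 148 FPKM in 2D, and the formats were again widely separate. NCOA5, a nuclear receptor coactivator, was at 1.35, 1.41 and 1.57 FPKM at 1 rpm, against 14.4, 13.2 and 14 FPKM in 2D (log2 change -2.61 ± 0.05, adjusted p = 3.1e-10). EDN1, the vasoconstrictor peptide endothelin, was at 3.46, 3.61 and 3.25 FPKM at 1 rpm, against 25, 22.1 and 23.7 FPKM in 2D (log2 change -2.47 ± 0.05, adjusted p = 3.9e-10). No 1 rpm value of either gene reached the range of 2D. TGM2, a transglutaminase that crosslinks matrix proteins, was at 1.03, 1.32 and 1.16 FPKM at 1 rpm, against 11.9, 10.8 and 9.78 FPKM in 2D (log2 change -2.45 ± 0.08, adjusted p = 2.5e-09). TUBB4B, a beta-tubulin of microtubules, was at 87.2, 85.5 and 90.6 FPKM at 1 rpm, against 475, 467 and 475 FPKM in 2D (log2 change -2.41 ± 0.03, adjusted p = 3.6e-11). TUBB4B has close sequence relatives in the tubulin family, so its reads may have been divided among them. FOXQ1, a forkhead factor, was at 0.453, 0.398 and 0.441 FPKM at 1 rpm, against 6.1, 6.03 and 6.36 FPKM in 2D (log2 change -2.32 ± 0.05, adjusted p = 4e-10), so that it fell below the filter level at 1 rpm. FOXQ1 thus passed the filter only through the 2D libraries, so it had to be separate. SKA3, a kinetochore protein, was at 2.3, 2.39 and 2.22 FPKM at 1 rpm, against 16.2, 16.2 and 16.2 FPKM in 2D (log2 change -2.38 ± 0.04, adjusted p = 1.2e-10).

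**Figure D2:**
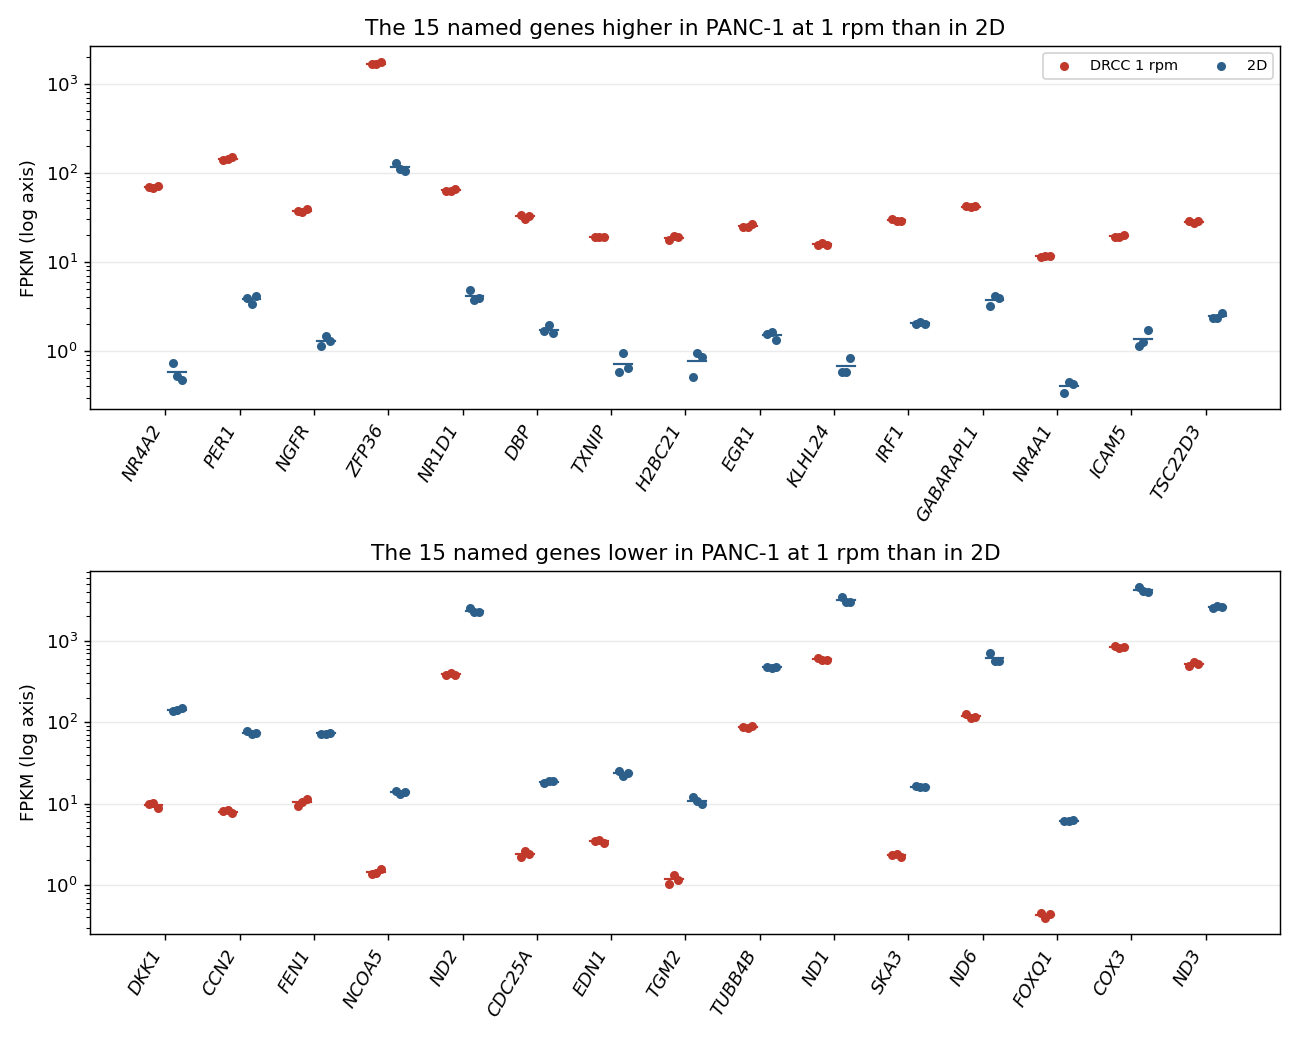
FPKM in each library (points, log axis) and the mean of 3 libraries (bar) for the 15 named genes higher at DRCC 1 rpm and the 15 lower, with DRCC 1 rpm on the left and 2D on the right of each pair. In all 30 genes the 3 libraries of 1 format lie together and the formats do not overlap, which the rule for naming them required. NR4A2 is at 68.2 to 71.9 FPKM at 1 rpm and at 0.468 to 0.736 FPKM in 2D.

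Immediate early genes are transcribed within minutes of a stimulus without new protein synthesis, through SRF, CREB and related factors, and several of their products shut the response down again. Of 14 immediate early genes tested of 19 listed, 12 were higher and 2 lower at 1 rpm, with a median log2 change of 1.33 (all genes tested 0.15). EGR1, a zinc finger factor, was at 24.8, 24.5 and 26.5 FPKM at 1 rpm, against 1.55, 1.64 and 1.32 FPKM in 2D (log2 change 3.39 ± 0.06, adjusted p = 1.2e-10). ZFP36, which binds AU-rich elements and speeds decay of cytokine mRNA, was at 1648, 1649 and 1733 FPKM at 1 rpm, against 129, 109.8 and 105 FPKM in 2D (log2 change 3.86 ± 0.07, adjusted p = 1.2e-10). For EGR1 and ZFP36 alike, every 1 rpm library lay above every 2D library. MCL1, an anti-apoptotic BCL2 relative with a short-lived mRNA, had 270.1 ± 0.824 FPKM at 1 rpm and 98.2 ± 2.89 FPKM in 2D (log2 change 1.45 ± 0.03, adjusted p = 2.6e-10). IER3 had 347 ± 8.79 FPKM at 1 rpm and 157 ± 7.66 FPKM in 2D (log2 change 1.14 ± 0.04, adjusted p = 3.9e-09). The 2 lower members were IER5 (-0.26) and ZFP36L2 (-0.19), both by less than any of the 12 higher ones.

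AP-1 factors are dimers of FOS, JUN, ATF and MAF proteins. Of 12 tested of 15 listed, 10 were higher and 2 lower, with a median of 1.47. MAFF, a small MAF protein, was at 32.3, 34.2 and 34.2 FPKM at 1 rpm, against 3.46, 3.17 and 3.08 FPKM in 2D (log2 change 3.03 ± 0.05, adjusted p = 6.9e-11). JUNB was at 60.3, 59.7 and 63.1 FPKM at 1 rpm, against 12.9, 12 and 13.6 FPKM in 2D (log2 change 2.17 ± 0.05, adjusted p = 3.4e-10). JUND followed with a log2 change of 2.05 ± 0.08, adjusted p = 1.3e-08, and FOS had only 4.09 ± 0.118 FPKM at 1 rpm and 0.224 ± 0.0363 FPKM in 2D. FOS passed the filter only through the 1 rpm libraries, so its formats had to be separate. FOSL1, the member linked to invasive carcinoma, went against most of the list at 85.1, 85 and 83.8 FPKM at 1 rpm, against 231, 199 and 198 FPKM in 2D (log2 change -1.29 ± 0.05, adjusted p = 1.6e-08). Of 12 KLF factors tested of 13 listed, 10 were higher and 1 lower, with a median of 0.65; KLF9 (log2 change 2.31 ± 0.07, adjusted p = 1.5e-09) and KLF6 (log2 change 1.9 ± 0.03, adjusted p = 4.2e-11) had the largest changes. KLF2, the member known for its response to fluid flow in endothelium, had 3.2 ± 0.265 FPKM at 1 rpm and 2.94 ± 0.0367 FPKM in 2D and was not called (log2 change 0.09 ± 0.06, adjusted p = 0.17). Of 13 CREB targets tested of 15 listed, which overlap the immediate early and clock lists, 10 were higher and 2 lower with a median of 1.77. SIK1, a kinase that restrains CREB coactivators, had 12.8 ± 0.743 FPKM at 1 rpm and 3.07 ± 0.133 FPKM in 2D (log2 change 1.77 ± 0.05, adjusted p = 2e-09). IRS2, an insulin receptor substrate, had 14.1 ± 0.428 FPKM at 1 rpm and 2.8 ± 0.202 FPKM in 2D (log2 change 1.99 ± 0.05, adjusted p = 9.3e-10).

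MAP kinase feedback genes encode phosphatases and Sprouty proteins that switch off ERK, p38 and JNK. Of 15 tested of 17 listed, 10 were higher and 3 lower, with a median log2 change of 1.05. DUSP1, a nuclear phosphatase, was at 222, 216 and 212 FPKM at 1 rpm, against 37, 36.6 and 38.2 FPKM in 2D (log2 change 2.51 ± 0.03, adjusted p = 3.6e-11). DUSP5 was at 100.1, 96.3 and 102 FPKM at 1 rpm, against 20.9, 20.5 and 20.7 FPKM in 2D (log2 change 2.21 ± 0.03, adjusted p = 4.4e-11). DUSP8 had 5.44 ± 0.217 FPKM at 1 rpm and 0.544 ± 0.0266 FPKM in 2D (log2 change 2.06 ± 0.05, adjusted p = 8.4e-10). All 3 phosphatases were separate between the formats, DUSP8 necessarily so, since it passed the filter only through the 1 rpm libraries. ERRFI1, a feedback inhibitor of the EGF receptor, had 266 ± 2.04 FPKM at 1 rpm and 109.5 ± 1.82 FPKM in 2D (log2 change 1.28 ± 0.03, adjusted p = 2.6e-10), and the Sprouty genes SPRY4 (1.25) and SPRY2 (1.04) were higher, whereas DUSP7 (-0.77) and SPRED2 (-0.43) were lower. Of 8 EGF family genes tested of 10 listed, 2 were higher and 5 lower, with a median of -0.28; the 2 higher were the receptors ERBB3 (log2 change 1.62 ± 0.07, adjusted p = 1.8e-08) and ERBB2 (log2 change 0.90 ± 0.04, adjusted p = 2.8e-08), while EGFR itself was lower at 33.7 ± 0.382 FPKM at 1 rpm and 47.8 ± 0.521 FPKM in 2D (log2 change -0.49 ± 0.03, adjusted p = 1e-07). ERBB3 passed the filter only through the 1 rpm libraries, so its formats had to be separate. Of 9 glucocorticoid targets tested of 10 listed, 6 were higher and 2 lower with a median of 1.40. FKBP5, a widely used reporter of that receptor, had 5.91 ± 0.0852 FPKM at 1 rpm and 5.67 ± 0.150 FPKM in 2D and was not called (log2 change 0.05 ± 0.04, adjusted p = 0.26), and MT2A was lower (log2 change -1.21 ± 0.04, adjusted p = 5.2e-09).

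Promoter sequence is shown because members of these lists moved together, from RefSeq windows (GRCh38.p14) over the 250 bases before each start. The serum response element was searched by its CArG consensus and the cyclic AMP element as TGACGTCA, on both strands. A CArG box was found in 2 of 12 immediate early promoters and in 1.44% of 27305 promoters of all genes. TGACGTCA was found in 2 of 15 MAPK feedback promoters and in 2.03% of all. It was also in 1 of 12 immediate early and 2 of 14 CREB target promoters. The DNA replication list, mostly lower at 1 rpm, had it in 3 of 30, and the clock, NF-kB and G1 lists in 0. The stretch of EGR1 (chr5:138465344-138465435, plus strand) holds CArG boxes 105 and 83 bases upstream of the start. The stretch of DUSP1 (chr5:172771268-172771350, minus strand) holds TGACGTCA 125 and the E-box CACGTG 108 bases upstream, and was chosen after its values were seen. Capitals mark the motifs found. A match describes the sequence and is not evidence of binding. Whether any motif goes with the direction of change was not tested.
EGR1: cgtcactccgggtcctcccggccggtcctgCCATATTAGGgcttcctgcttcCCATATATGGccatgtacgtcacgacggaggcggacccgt
DUSP1: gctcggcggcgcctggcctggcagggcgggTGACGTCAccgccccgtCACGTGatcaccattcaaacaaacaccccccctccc

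The circadian clock list was higher almost throughout. CLOCK and ARNTL activate E-box genes, PER, CRY and NR1D proteins repress them, and DBP, TEF and NFIL3 act at D-boxes. Of 16 clock genes tested of 22 listed, 15 were higher and 1 lower at 1 rpm, with a median log2 change of 0.71. PER1, a repressor that is also an immediate early gene, was at 141, 142 and 149 FPKM at 1 rpm, against 3.97, 3.39 and 4.15 FPKM in 2D (log2 change 4.91 ± 0.06, adjusted p = 3.6e-11). NR1D1, a nuclear receptor that represses ARNTL, was at 62.8, 61.9 and 65.7 FPKM at 1 rpm, against 4.85, 3.69 and 3.91 FPKM in 2D (log2 change 3.65 ± 0.07, adjusted p = 2.8e-10). DBP, an output activator, was at 33.8, 30.6 and 32.6 FPKM at 1 rpm, against 1.67, 1.94 and 1.6 FPKM in 2D (log2 change 3.61 ± 0.06, adjusted p = 9.1e-11). Each of the 3 was separate between formats. NR1D2 (2.02), BHLHE40 (1.9), CRY2 (1.41) and NFIL3 (1.2) had intermediate changes. Of the activators, CLOCK had 2.81 ± 0.295 FPKM at 1 rpm and 2.43 ± 0.0840 FPKM in 2D (log2 change 0.15 ± 0.06, adjusted p = 0.047), a value at the median of all genes that was -0.02 with median-ratio scaling and -0.21 with quantile normalization. Its call was lost when any library except 1 rpm replicate 3 was left out (adjusted p = 0.063 to 0.18). ARNTL had 3.54 ± 0.0205 FPKM at 1 rpm and 2.33 ± 0.240 FPKM in 2D (log2 change 0.45 ± 0.06, adjusted p = 6.1e-05), and NPAS2, the CLOCK paralog, was lower (log2 change -0.33 ± 0.05, adjusted p = 8e-05). PER2 (log2 0.27, but -0.10 with quantile normalization) and PER3 (log2 0.37) stood far below PER1. The canonical E-box CACGTG was found in 6 of 19 clock promoters and in 7.73% of all 27305. Lists that were mostly lower also had it, in 3 of 13 G1 and 4 of 30 replication promoters. Counts in mostly higher lists were 4 of 14 for CREB targets and 2 of 15 for MAPK feedback. The E-box was also in 1 of 12 immediate early and 1 of 21 NF-kB promoters. It stands 173 bases upstream of the PER1 start in the stretch below (chr17:8152542-8152607, minus strand), with the E-box in capitals.
PER1: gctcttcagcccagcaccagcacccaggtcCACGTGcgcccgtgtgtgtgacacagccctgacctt

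NF-kB targets and cytokines were mostly higher. NF-kB dimers induce their own inhibitors, adhesion molecules and chemokines. Of 19 tested of 26 listed, 17 were higher and 1 lower at 1 rpm, with a median log2 change of 1.27. NFKBIA, the inhibitor that holds NF-kB in the cytoplasm, was at 56.5, 59.5 and 56.7 FPKM at 1 rpm, against 9.57, 9.96 and 8.85 FPKM in 2D (log2 change 2.49 ± 0.04, adjusted p = 1.4e-10). IRF1, an interferon regulatory factor and target of NF-kB, was at 30.2, 29 and 28.9 FPKM at 1 rpm, against 1.98, 2.1 and 2.03 FPKM in 2D (log2 change 3.32 ± 0.04, adjusted p = 3.6e-11). The subunit NFKB2 had 23.7 ± 0.302 FPKM at 1 rpm and 6.95 ± 0.543 FPKM in 2D (log2 change 1.64 ± 0.05, adjusted p = 2.5e-09), whereas NFKB1 had 8.7 ± 0.490 FPKM at 1 rpm and 8.55 ± 0.0934 FPKM in 2D and was not called (log2 change 0.02 ± 0.05, adjusted p = 0.68). TNFAIP3, a deubiquitinase that dampens the pathway, had 3.09 ± 0.157 FPKM at 1 rpm and 0.336 ± 0.0115 FPKM in 2D (log2 change 1.61 ± 0.05, adjusted p = 4e-09). ICAM1, a leukocyte adhesion molecule, had 13.3 ± 0.280 FPKM at 1 rpm and 4.17 ± 0.0751 FPKM in 2D (log2 change 1.46 ± 0.04, adjusted p = 1.2e-09). The chemokines CXCL2 (2.07 ± 0.113 FPKM at 1 rpm and 0.223 ± 0.115 FPKM in 2D) and CXCL3 (2.83 ± 0.663 FPKM at 1 rpm and 0.191 ± 0.153 FPKM in 2D) passed the filter only through the 1 rpm libraries. TNF had 1.43 ± 0.299 FPKM at 1 rpm and was listed at 0 in every 2D library, so no fold is given. TNFAIP3, TNF, NFKBIZ and IL11 likewise passed the filter only through the 1 rpm libraries. All of these genes, with CXCL2 and CXCL3, therefore had to be separate. CCL2, a monocyte chemoattractant, was the exception at 10.7, 10.1 and 10.1 FPKM at 1 rpm, against 45.9, 43.3 and 41.5 FPKM in 2D (log2 change -1.98 ± 0.04, adjusted p = 4.7e-10), a fall without overlap.

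The kB site was searched by its consensus on both strands. It was found in 13 of 21 promoters of the NF-kB list and in 6.28% of all 27305. In NFKBIA (chr14:35404791-35404860, minus strand) it stands 81 bases upstream of the start, and in CXCL2 (chr4:74099233-74099303, minus strand) 78 and 77 bases upstream. The CXCL2 matches overlap in the same stretch, read on opposite strands, and are not separate sites. Both stretches were chosen after their values were seen, and capitals mark the sites.
NFKBIA: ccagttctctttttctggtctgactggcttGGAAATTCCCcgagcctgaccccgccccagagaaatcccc
CXCL2: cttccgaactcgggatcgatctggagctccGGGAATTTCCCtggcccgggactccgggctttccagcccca

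DNA replication genes were lower at 1 rpm with 1 exception. Origins are licensed by the MCM helicase with CDC6 and CDT1, fired with CDC45 and GINS, and copied by polymerases with PCNA, RFC and FEN1, and most of these genes are E2F targets. All 36 listed genes were tested, of which 35 were lower and 1 higher, with a median log2 change of -1.01. FEN1, which removes Okazaki primers, was at 9.38, 10.6 and 11.3 FPKM at 1 rpm, against 71.7, 72.3 and 74.5 FPKM in 2D (log2 change -2.7 ± 0.06, adjusted p = 3.1e-10). Of the helicase, MCM3 was at 24.8, 24.3 and 26.6 FPKM at 1 rpm, against 79.6, 78.4 and 77 FPKM in 2D (log2 change -1.6 ± 0.04, adjusted p = 5.8e-10). MCM7 had 28.6 ± 0.609 FPKM at 1 rpm and 89.2 ± 0.926 FPKM in 2D (log2 change -1.61 ± 0.03, adjusted p = 1.3e-10), while MCM6 changed less, at 20.1 ± 0.587 FPKM at 1 rpm and 28.5 ± 0.490 FPKM in 2D (log2 change -0.48 ± 0.03, adjusted p = 4.9e-07). Among the firing factors, GINS2 had 2.74 ± 0.379 FPKM at 1 rpm and 13.8 ± 0.891 FPKM in 2D (log2 change -1.99 ± 0.08, adjusted p = 9.5e-09). CDC45 had 3.4 ± 0.507 FPKM at 1 rpm and 14.7 ± 0.445 FPKM in 2D (log2 change -1.84 ± 0.07, adjusted p = 1.3e-08). PCNA, the sliding clamp, was at 76.4, 77.1 and 75.1 FPKM at 1 rpm, against 209, 199 and 196 FPKM in 2D (log2 change -1.39 ± 0.03, adjusted p = 4.7e-10). The exception was RFC1, the large clamp-loader subunit, at 14.6, 14.2 and 13.9 FPKM at 1 rpm, against 9.12, 8.06 and 8.94 FPKM in 2D (log2 change 0.65 ± 0.05, adjusted p = 8.3e-07); its partners RFC2, RFC3 and RFC5 were lower (log2 -0.77, -0.73 and -0.95). The partner RFC4 was only just called lower, at 44.2 ± 1.58 FPKM at 1 rpm and 46.9 ± 0.765 FPKM in 2D (log2 change -0.08 ± 0.03, adjusted p = 0.039).

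Nucleotide supply was lower in most members: of 23 genes, all tested, 19 were lower and 3 higher, with a median of -0.82. CTPS1, which makes CTP, was at 28.7, 28.2 and 28.9 FPKM at 1 rpm, against 114, 119 and 116 FPKM in 2D (log2 change -1.99 ± 0.03, adjusted p = 4.4e-11). TYMS, thymidylate synthase, was at 87.4, 85.1 and 85.7 FPKM at 1 rpm, against 309, 309.6 and 314 FPKM in 2D (log2 change -1.84 ± 0.03, adjusted p = 4.2e-11). RRM2, the regulated ribonucleotide reductase subunit, was at 33.7, 34.6 and 33.4 FPKM at 1 rpm, against 122, 128 and 124 FPKM in 2D (log2 change -1.85 ± 0.03, adjusted p = 8.5e-11). In each of these deoxynucleotide and CTP enzymes the formats were far apart. The 3 higher genes were PPAT (0.53), IMPDH2 (0.25) and IMPDH1 (0.23), all of purine synthesis, but the list's other purine synthesis genes, ADSL (-1.03), PFAS (-0.82), ATIC (-0.73), PAICS (-0.72), GMPS (-0.50) and GART (-0.21), were lower, GART not called with quantile normalization (adjusted p = 0.064). With median-ratio scaling IMPDH2 and IMPDH1 were not called. RRM2B, the p53-dependent counterpart of RRM2, had 13.9 ± 0.0324 FPKM at 1 rpm and 6.77 ± 0.259 FPKM in 2D and was higher (log2 change 0.94 ± 0.04, adjusted p = 1.6e-08).

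Of 17 G1 cyclin and E2F genes tested of 18 listed, 16 were lower and 1 higher, with a median of -1.06. CDC25A, a phosphatase that activates CDK2, was at 2.22, 2.61 and 2.38 FPKM at 1 rpm, against 17.9, 18.9 and 18.8 FPKM in 2D (log2 change -2.52 ± 0.05, adjusted p = 3.1e-10). CCND1, cyclin D1, was at 40.9, 39.7 and 40.7 FPKM at 1 rpm, against 160.3, 161 and 153 FPKM in 2D (log2 change -1.94 ± 0.03, adjusted p = 7.3e-11). E2F1 had 5.96 ± 0.620 FPKM at 1 rpm and 23.5 ± 0.396 FPKM in 2D (log2 change -1.82 ± 0.06, adjusted p = 4.2e-09). The member that rose was RBL2, the p130 pocket protein of quiescent cells, at 15.3, 15.7 and 15.5 FPKM at 1 rpm, against 6.09, 5.97 and 6.67 FPKM in 2D (log2 change 1.19 ± 0.05, adjusted p = 8.8e-09). Of 5 CDK inhibitors tested of 7 listed, 3 were higher and 2 lower, with a median of 1.09. CDKN1C, p57, was at 10.2, 10.9 and 9.6 FPKM at 1 rpm, against 0.625, 1.02 and 0.785 FPKM in 2D (log2 change 2.64 ± 0.08, adjusted p = 2.5e-09). CDKN1B, p27, was at 46.4, 47.4 and 47.6 FPKM at 1 rpm, against 13.3, 15.1 and 14.2 FPKM in 2D (log2 change 1.66 ± 0.04, adjusted p = 1e-09). CDKN2C, p18 and an E2F target itself, was lower at 13.7 ± 0.522 FPKM at 1 rpm and 38.9 ± 1.15 FPKM in 2D (log2 change -1.44 ± 0.04, adjusted p = 1.1e-09). CDKN1A, p21, was at 14.3, 14.9 and 14.9 FPKM at 1 rpm, against 16.4, 17.2 and 14.8 FPKM in 2D, with overlap between the formats (log2 change -0.12 ± 0.05, adjusted p = 0.045). The call was lost when any library except 2D replicate 3 was left out (adjusted p = 0.067 to 0.17).

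E2F sites were searched as TTTCCCGC, TTTGGCGC and TTTCGCGC on both strands. At least 1 was found in 11 of 30 replication promoters and 5 of 13 promoters of the G1 list, against 2.85% of all 27305 promoters. CREB targets, mostly higher, had them in 2 of 14 promoters, and the other lists searched in 0. In MCM3 (chr6:52284879-52284946, minus strand) the site stands 174 bases upstream of the start, in PCNA (chr20:5126644-5126711, minus strand) 59 bases and in CDC25A (chr3:48188424-48188491, minus strand) 44 bases. Sites are in capitals, and CDC25A was chosen after its values were seen.
MCM3: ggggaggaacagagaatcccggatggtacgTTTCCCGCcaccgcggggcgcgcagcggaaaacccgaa
PCNA: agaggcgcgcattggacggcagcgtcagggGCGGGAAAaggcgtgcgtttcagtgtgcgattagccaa
CDC25A: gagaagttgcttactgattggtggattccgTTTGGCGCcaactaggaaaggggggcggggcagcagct

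Mitosis genes were split. Of 32 listed and tested, 24 were lower and 7 higher, with a median log2 change of -0.67. CCNB1, cyclin B1, was at 121, 124 and 126 FPKM at 1 rpm, against 269, 276 and 272 FPKM in 2D (log2 change -1.13 ± 0.03, adjusted p = 5.6e-10). CDC20, the activator of the anaphase-promoting complex, had 106 ± 4.17 FPKM at 1 rpm and 226 ± 7.27 FPKM in 2D (log2 change -1.08 ± 0.04, adjusted p = 4e-09). The higher members included large centromere and chromosome proteins: CENPF was at 25.7, 26.8 and 27.4 FPKM at 1 rpm, against 14.1, 13.8 and 13.7 FPKM in 2D (log2 change 0.90 ± 0.04, adjusted p = 1e-08). CENPE had 7.3 ± 0.0551 FPKM at 1 rpm and 3.78 ± 0.234 FPKM in 2D (log2 change 0.80 ± 0.05, adjusted p = 2e-07). TOP2A, which untangles chromosomes, had 96 ± 0.653 FPKM at 1 rpm and 70.2 ± 0.702 FPKM in 2D (log2 change 0.45 ± 0.03, adjusted p = 1.1e-07). CDK1 had 37.5 ± 0.519 FPKM at 1 rpm and 35.9 ± 1.04 FPKM in 2D, overlapped between formats and was not called (log2 change 0.06 ± 0.03, adjusted p = 0.09). MKI67, a proliferation marker that is also a long transcript, was lower at 26 ± 0.298 FPKM at 1 rpm and 47.8 ± 4.4 FPKM in 2D (log2 change -0.85 ± 0.06, adjusted p = 3.2e-07).

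Clustered histone genes were higher. Only 9 of 20 listed passed the filter, and all 9 were higher, with a median of 1.72. H2BC21 was at 17.6, 19.4 and 18.9 FPKM at 1 rpm, against 0.511, 0.948 and 0.862 FPKM in 2D (log2 change 3.48 ± 0.09, adjusted p = 9.7e-10). H2BC21 passed the filter only through the 1 rpm libraries, so its formats had to be separate. H2AC6 was at 36, 42.4 and 35.1 FPKM at 1 rpm, against 6.58, 8.27 and 8.0 FPKM in 2D (log2 change 2.17 ± 0.09, adjusted p = 1.3e-08). H1-2 had 54.6 ± 4.09 FPKM at 1 rpm and 16 ± 2.99 FPKM in 2D (log2 change 1.72 ± 0.11, adjusted p = 2.7e-07). Most clustered histone mRNAs end in a stem-loop without a poly(A) tail, and several copies are nearly identical, so these levels are uncertain. The sources used here do not say how RNA was selected for the libraries.

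FOXO factors are held in the cytoplasm by AKT when growth factors are present. Of 15 genes tested of 18 in a joint list of FOXO and growth arrest genes, 14 were higher and 0 lower, with a median of 1.68. TXNIP, an arrestin that limits glucose uptake, was at 19, 19.1 and 18.8 FPKM at 1 rpm, against 0.574, 0.950 and 0.636 FPKM in 2D (log2 change 3.54 ± 0.08, adjusted p = 3.9e-10). PIK3IP1, an inhibitor of PI3 kinase, was at 11.7, 10.5 and 10.9 FPKM at 1 rpm, against 0.368, 0.281 and 0.637 FPKM in 2D (log2 change 3.08 ± 0.09, adjusted p = 1.6e-09). CCNG2, an atypical cyclin of arrested cells, was at 11.4, 11.7 and 10.8 FPKM at 1 rpm, against 0.656, 0.996 and 0.947 FPKM in 2D (log2 change 2.72 ± 0.07, adjusted p = 1.3e-09). For these 3 genes every 1 rpm library exceeded every 2D library by a wide margin. All 3 were under 1 FPKM in every 2D library and passed the filter only through the 1 rpm libraries, so they had to be separate. FOXO3 (1.27), FOXO4 (1.68) and BCL6 (1.72) were higher as well, and SESN2, the member not called, had 4.22 ± 0.243 FPKM at 1 rpm and 4.72 ± 0.324 FPKM in 2D (log2 change -0.13 ± 0.06, adjusted p = 0.061). FOXO4 also passed the filter only through the 1 rpm libraries.

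Of 17 p53 targets tested of 18 listed, 11 were higher and 4 lower with a median of 0.59. GDF15, a secreted stress cytokine also driven by ATF4, was at 321, 321 and 332 FPKM at 1 rpm, against 63.9, 63.6 and 62 FPKM in 2D (log2 change 2.35 ± 0.03, adjusted p = 3.6e-11). BBC3, the killer protein PUMA that FOXO3 also induces, was at 8.33, 7.77 and 8.29 FPKM at 1 rpm, against 0.681, 0.995 and 1.01 FPKM in 2D (log2 change 2.27 ± 0.07, adjusted p = 3.4e-09). MDM2, a direct p53 target, had 12.6 ± 0.313 FPKM at 1 rpm and 9.6 ± 0.248 FPKM in 2D (log2 change 0.36 ± 0.04, adjusted p = 1.2e-05), and BAX was lower (-0.53). Of 12 BCL2 family genes tested of 15 listed, 7 were higher and 5 lower, with a median of 0.36 that was -0.15 over genes with a mean of at least 5 FPKM. Pro-death and protective members were found on both sides. Of the BH3-only genes, BBC3, BMF (1.31), BCL2L11 (1.19) and PMAIP1 (0.14) were higher and BID (-0.76) and BAD (-0.15) lower. PMAIP1 was only just called (adjusted p = 0.046), with overlap between the formats. BMF passed the filter only through the 1 rpm libraries, so it had to be separate. BAD was not called without 2D replicate 3 (adjusted p = 0.06), 1 rpm replicate 2 (0.052), the filter (0.053) or the mitochondrially encoded genes (0.17). Of the protective ones, MCL1 and BCL2L2 (0.63) were higher and BCL2L1 (-0.79) and BCL2A1 (-1.17) lower. Of 7 neurotrophin and death receptors tested of 13 listed, 4 were higher and 3 lower; their median of 0.25 was -0.06 with quantile normalization. TNFRSF12A, the TWEAK receptor, was at 68.1, 70.3 and 69.2 FPKM at 1 rpm, against 157, 157 and 156 FPKM in 2D (log2 change -1.17 ± 0.03, adjusted p = 4.2e-10), in the opposite direction to NGFR. NTRK2 and NTRK3, Trk partners of NGFR, did not pass the filter. All 5 PIM and MYC family genes tested of 6 listed were higher, with a median of 1.55. PIM3, a serine/threonine kinase, was at 141, 145 and 148 FPKM at 1 rpm, against 28.3, 28.1 and 27.6 FPKM in 2D (log2 change 2.33 ± 0.03, adjusted p = 3.8e-11). MYC was at 88.2, 88.6 and 94.7 FPKM at 1 rpm, against 34.8, 27.8 and 28.9 FPKM in 2D (log2 change 1.55 ± 0.07, adjusted p = 3.2e-08).

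Mitochondrially encoded mRNAs were lower unevenly. They come from polycistronic transcripts of the mitochondrial genome and encode core subunits of complexes I, III, IV and V. Of 13 genes, all tested, 11 were lower and 1 higher, with a median of -1.75. ND2 was at 383, 404 and 376 FPKM at 1 rpm, against 2510.0, 2271 and 2269 FPKM in 2D (log2 change -2.6 ± 0.05, adjusted p = 1.3e-10). COX3 was at 867, 822 and 848 FPKM at 1 rpm, against 4556, 4115 and 4032 FPKM in 2D (log2 change -2.32 ± 0.05, adjusted p = 3.1e-10). COX1 was at 2946, 2884 and 2853 FPKM at 1 rpm, against 7112, 6573 and 6442 FPKM in 2D (log2 change -1.21 ± 0.04, adjusted p = 5.5e-09). All 3 were lower in every 1 rpm library than in any 2D library. ND4 was at 5362, 5243 and 5003 FPKM at 1 rpm, against 5560.0, 5031 and 4944 FPKM in 2D, overlapped between formats and was not called (log2 change 0.01 ± 0.05, adjusted p = 0.89). ND5 was at 3011, 2772 and 2744 FPKM at 1 rpm, against 2465, 2204 and 2121 FPKM in 2D and was higher (log2 change 0.33 ± 0.06, adjusted p = 0.00046), but not called with median-ratio scaling (log2 0.10, adjusted p = 0.23). Thus genes of 1 complex, complex I, ranged from a log2 change of -2.6 to 0.33. Nuclear copies of mitochondrial sequence and overlapping mitochondrial genes on opposite strands make these values uncertain, ND6 in particular. Leaving them out and rescaling gave 6238 higher and 3358 lower genes.

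**Figure D3:**
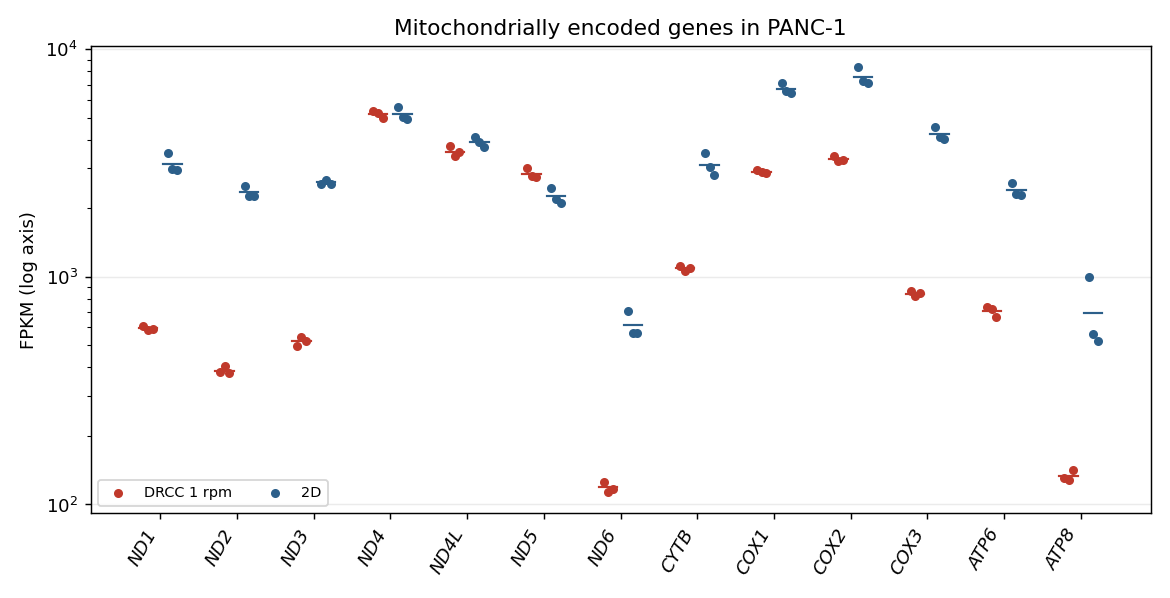
FPKM of the 13 mitochondrially encoded genes in each PANC-1 library (points, log axis) with means as bars, DRCC 1 rpm on the left and 2D on the right of each pair. ND4 and ND4L overlap between formats, ND5 is higher at 1 rpm, and the other 10 are lower without overlap.

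Of 55 nuclear genes of oxidative phosphorylation tested of 56 listed, 38 were lower and 11 higher, with a median of -0.21. The largest fall was that of ATP5MC3, a c-ring subunit of ATP synthase, at 43.8 ± 1.54 FPKM at 1 rpm and 83.2 ± 6.95 FPKM in 2D (log2 change -0.91 ± 0.06, adjusted p = 2.2e-07). Of 21 glycolysis genes, all tested, 14 were lower and 5 higher, with a median of -0.33. LDHA, which makes lactate, was at 417, 412 and 409.5 FPKM at 1 rpm, against 858, 891 and 896 FPKM in 2D (log2 change -1.09 ± 0.03, adjusted p = 9.2e-10). PGK1 had 103 ± 2.22 FPKM at 1 rpm and 195 ± 10.5 FPKM in 2D (log2 change -0.91 ± 0.04, adjusted p = 2.2e-08). SLC2A3, a high-affinity glucose transporter, went the other way at 4.33, 4.38 and 4.11 FPKM at 1 rpm, against 0.310, 0.309 and 0.185 FPKM in 2D (log2 change 2.06 ± 0.06, adjusted p = 1.9e-09), with the formats far apart, and SLC2A1 had 24.8 ± 0.701 FPKM at 1 rpm and 17.9 ± 0.476 FPKM in 2D (log2 change 0.45 ± 0.04, adjusted p = 1.4e-06). SLC2A3 passed the filter only through the 1 rpm libraries, so its formats had to be separate. HIF targets, which rise in low oxygen, were mixed. Of 17 tested of 20 listed, 10 were higher and 5 lower with a median of 0.27. VEGFA had 14.3 ± 0.269 FPKM at 1 rpm and 12.2 ± 0.428 FPKM in 2D (log2 change 0.22 ± 0.04, adjusted p = 0.00044, but -0.002 with median-ratio scaling) and NDRG1 had 7.12 ± 0.0888 FPKM at 1 rpm and 5.44 ± 0.167 FPKM in 2D (log2 change 0.34 ± 0.04, adjusted p = 3.9e-05), while ADM, adrenomedullin, was lower at 39.8 ± 2.06 FPKM at 1 rpm and 75.6 ± 2.47 FPKM in 2D (log2 change -0.91 ± 0.04, adjusted p = 2.9e-08); the largest rise was that of MXI1, a MYC antagonist (log2 change 1.75 ± 0.05, adjusted p = 2.3e-09).

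Sterol and fatty acid synthesis genes, which SREBP factors switch on when membrane sterol is low, were mostly higher. Of 24 cholesterol genes tested of 25 listed, 18 were higher and 6 lower, with a median of 0.60. HMGCS1, the entry enzyme, was at 27.7, 28.1 and 27.8 FPKM at 1 rpm, against 5.96, 6.15 and 6.64 FPKM in 2D (log2 change 1.99 ± 0.04, adjusted p = 3.6e-10). MSMO1, a sterol demethylase, was at 52.5, 53.7 and 53.6 FPKM at 1 rpm, against 13.8, 14.8 and 15.4 FPKM in 2D (log2 change 1.79 ± 0.04, adjusted p = 5.1e-10). STARD4, a sterol carrier, had 5.89 ± 0.178 FPKM at 1 rpm and 1.11 ± 0.0378 FPKM in 2D (log2 change 1.7 ± 0.05, adjusted p = 1.6e-09). SREBF2, the sterol-responsive SREBP, had 23.6 ± 0.649 FPKM at 1 rpm and 8.83 ± 0.317 FPKM in 2D (log2 change 1.32 ± 0.04, adjusted p = 2e-09). The lower members included PMVK (-0.94), NSDHL (-0.67), EBP (-0.49), FDPS (-0.28) and ACAT2 (-0.27). Of 14 fatty acid genes, all tested, 12 were higher and 0 lower, with a median of 0.57. SCD, the stearoyl-CoA desaturase, was at 575, 572 and 566 FPKM at 1 rpm, against 209.8, 203 and 204 FPKM in 2D (log2 change 1.47 ± 0.03, adjusted p = 1.3e-10). FASN, the fatty acid synthase, was at 101, 98.1 and 104 FPKM at 1 rpm, against 37, 35.7 and 35.6 FPKM in 2D (log2 change 1.46 ± 0.03, adjusted p = 4.2e-10). SREBF1 had 71.4 ± 1.6 FPKM at 1 rpm and 20.2 ± 0.130 FPKM in 2D (log2 change 1.77 ± 0.03, adjusted p = 9.8e-11). ACLY (-0.07) and ELOVL5 (-0.02) were not called.

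Chaperones fold proteins and the proteasome degrades them. Genes of the heat shock list were mostly lower, 16 of 23 tested of 24 listed against 4 higher, with a median of -0.37. The list includes the mitochondrial HSPD1 and HSPE1 and the factors HSF1 and HSF2. HSPA8, the constitutive HSP70, was at 909, 910.3 and 921 FPKM at 1 rpm, against 1743, 1658 and 1655 FPKM in 2D (log2 change -0.88 ± 0.03, adjusted p = 5e-09). AHSA1, an HSP90 activator, had 52.7 ± 2.34 FPKM at 1 rpm and 114 ± 5.23 FPKM in 2D (log2 change -1.1 ± 0.04, adjusted p = 9.6e-09). HSP90AA1 (0.03) and the mitochondrial HSPD1 (0.01) were not called. HSPA1A (-0.82) and HSPA1B (-0.25) are nearly identical copies, and their values are uncertain. Of the 8 subunits of the CCT chaperonin, which folds actin and tubulin, 7 were lower and 1 higher (median -0.61); CCT3 had 263 ± 6.73 FPKM at 1 rpm and 492 ± 14.1 FPKM in 2D (log2 change -0.90 ± 0.03, adjusted p = 5.2e-09) and CCT8 was the exception (log2 change 0.33 ± 0.03, adjusted p = 2.2e-06). Of 31 proteasome subunits 28 were lower and 2 higher, with a median of -0.49. PSMC3, a base ATPase, was at 56.4, 53.9 and 56.2 FPKM at 1 rpm, against 137, 137 and 142 FPKM in 2D (log2 change -1.31 ± 0.03, adjusted p = 5.3e-10), whereas PSMC6, another base ATPase, was higher at 18.6 ± 0.255 FPKM at 1 rpm and 11.6 ± 0.257 FPKM in 2D (log2 change 0.64 ± 0.03, adjusted p = 8.1e-08).

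In the endoplasmic reticulum the unfolded protein response list was evenly divided, with 10 higher and 10 lower of 21, and its median of 0.08 was -0.16 with median-ratio scaling. DNAJB9, a target of XBP1, was at 17.8, 16 and 15.7 FPKM at 1 rpm, against 3.59, 3.63 and 4.66 FPKM in 2D (log2 change 1.82 ± 0.08, adjusted p = 2.7e-08). HSP90B1 had 336 ± 3.05 FPKM at 1 rpm and 174 ± 3.63 FPKM in 2D (log2 change 0.95 ± 0.03, adjusted p = 1.4e-09), but SDF2L1 (-0.68), MANF (-0.60) and CALR (-0.54) were lower. Of 26 ATF4 amino acid stress genes tested of 28 listed, 17 were higher and 7 lower, with a median of 0.60. DDIT3, the factor CHOP, was at 82.9, 80.0 and 79 FPKM at 1 rpm, against 15.3, 14.2 and 12.8 FPKM in 2D (log2 change 2.44 ± 0.06, adjusted p = 5.1e-10). PPP1R15A, which reverses eIF2-alpha phosphorylation, was at 80.2, 82 and 89.7 FPKM at 1 rpm, against 13.2, 12.2 and 10.6 FPKM in 2D (log2 change 2.71 ± 0.07, adjusted p = 9.2e-10). ASNS, asparagine synthetase, had 2.67 ± 0.117 FPKM at 1 rpm and 0.371 ± 0.0690 FPKM in 2D (log2 change 1.42 ± 0.06, adjusted p = 1.6e-08), and of the amino acid transporters SLC7A11 was higher (1.47) and SLC7A5 (-0.69) and SLC7A1 (-0.58) lower. ASNS passed the filter only through the 1 rpm libraries, so its formats had to be separate. Of 20 NRF2 antioxidant genes tested of 24 listed, 14 were higher and 5 lower with a median of 0.39. HMOX1, heme oxygenase, was at 84.6, 81.7 and 91.1 FPKM at 1 rpm, against 11.6, 9.48 and 10.7 FPKM in 2D (log2 change 2.91 ± 0.07, adjusted p = 5.1e-10), and the ferritin genes FTL (0.72) and FTH1 (0.57) were higher too, as were OSGIN1 (1.48), the cystine transporter SLC7A11 and NFE2L2 (0.92), which encodes NRF2 itself. NQO1 had 46.3 ± 0.717 FPKM at 1 rpm and 34.9 ± 1.29 FPKM in 2D (log2 change 0.40 ± 0.03, adjusted p = 2.1e-06) and TXN was lower (-0.50). Of 10 iron and metallothionein genes tested of 14 listed, 4 were higher and 5 lower with a median of -0.25. The transferrin receptor TFRC (-0.54) and the metallothioneins MT1E (-1.74) and MT2A were lower.

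Autophagy delivers cell contents to the lysosome under the control of ULK1 and TFE factors. Of 21 tested, 14 were higher and 5 lower, and the median of 0.22 was -0.02 with median-ratio scaling. GABARAPL1, an ATG8 protein of autophagosomes and a FOXO target, was at 41.9, 41.3 and 42 FPKM at 1 rpm, against 3.23, 4.11 and 3.93 FPKM in 2D (log2 change 3.17 ± 0.06, adjusted p = 3e-10). The regulators ULK1 (1.19), TFE3 (1.26) and WIPI1 (1.24) and the receptor SQSTM1 (0.94) were higher. LAMP1 (-0.04) and CTSL (-0.01) were not called, and MCOLN1 was lower (-0.80).

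Genes that follow cell tension and attachment were mostly lower. YAP and TAZ act with TEAD factors when cells spread, and SRF with its cofactors when actin is polymerized. Of 20 YAP/TAZ targets tested of 21 listed, 14 were lower and 4 higher, with a median of -0.53. CCN2, the classic target, was at 8.05, 8.24 and 7.61 FPKM at 1 rpm, against 78.2, 72.7 and 73.3 FPKM in 2D (log2 change -3.08 ± 0.04, adjusted p = 3.9e-11). ANKRD1, a muscle-related ankyrin protein, was at 0.197, 0.171 and 0.137 FPKM at 1 rpm, against 4.82, 5.13 and 4.89 FPKM in 2D (log2 change -2.35 ± 0.05, adjusted p = 5.1e-10). AMOTL2, a junction protein that feeds back on YAP, was at 5.97, 5.58 and 5.89 FPKM at 1 rpm, against 19.9, 18.9 and 19.7 FPKM in 2D (log2 change -1.59 ± 0.04, adjusted p = 9.2e-10). These 3 lay apart in every library, but NUAK2, a kinase also induced by YAP, was higher at 6.12 ± 0.383 FPKM at 1 rpm and 1.96 ± 0.111 FPKM in 2D (log2 change 1.26 ± 0.06, adjusted p = 2.5e-08) and TEAD1 was not called (0.04). ANKRD1 passed the filter only through the 2D libraries, so it had to lie apart. Of 21 SRF and actin genes tested of 24 listed, 17 were lower and 3 higher, with a median of -0.60. ACTB, beta-actin, was at 1942, 1869 and 1952 FPKM at 1 rpm, against 4303, 3860.0 and 3740.0 FPKM in 2D (log2 change -1.04 ± 0.05, adjusted p = 4.4e-08). CFL1, cofilin, was at 755, 744 and 758 FPKM at 1 rpm, against 1637, 1570.0 and 1561 FPKM in 2D (log2 change -1.08 ± 0.03, adjusted p = 1.3e-09). VCL, vinculin of focal adhesions, had 52.6 ± 0.224 FPKM at 1 rpm and 99.9 ± 0.203 FPKM in 2D (log2 change -0.91 ± 0.02, adjusted p = 1.2e-09). ACTG1 had a log2 change of -0.13, which was 0.31 with quantile normalization; actin genes have many processed copies, so their values are uncertain.

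ID proteins block basic helix-loop-helix factors and are induced by BMP signals, and ID1, ID2 and ID3 were lower. ID2 was at 4.03, 3.67 and 3.53 FPKM at 1 rpm, against 17.2, 19.8 and 19.1 FPKM in 2D (log2 change -2.05 ± 0.06, adjusted p = 1.9e-09). ID3 was at 53, 54.9 and 54.8 FPKM at 1 rpm, against 130.2, 132 and 125 FPKM in 2D (log2 change -1.24 ± 0.03, adjusted p = 7.7e-10). ID1 had 92.6 ± 0.215 FPKM at 1 rpm and 198 ± 3.94 FPKM in 2D (log2 change -1.09 ± 0.03, adjusted p = 6.5e-10). Of 13 genes of the TGF-beta, BMP and ID list tested of 19 listed, 9 were lower and 3 higher with a median of -0.26; NOG, a BMP antagonist, was lower (-1.52), and SKIL, a feedback inhibitor, was higher (0.75). Of 7 Wnt feedback genes tested of 17 listed, 6 were lower and 1 higher with a median of -0.39. AXIN2, a Wnt target, had a log2 change of -0.39, and the higher member was NKD2 at 8.54 ± 0.236 FPKM at 1 rpm and 1.46 ± 0.0789 FPKM in 2D (log2 change 1.96 ± 0.05, adjusted p = 8.2e-10).

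Matrix and adhesion genes did not move in 1 direction. Of 12 matrix genes tested of 23 listed, 8 were higher and 4 lower with a median of 0.23. HSPG2, perlecan of basement membranes, had 11.3 ± 0.123 FPKM at 1 rpm and 3.96 ± 0.0695 FPKM in 2D (log2 change 1.31 ± 0.04, adjusted p = 2.3e-09). LAMA5 had 36.2 ± 0.765 FPKM at 1 rpm and 17.4 ± 0.593 FPKM in 2D (log2 change 1.02 ± 0.04, adjusted p = 4.9e-09), and COL6A1 (1.15) and COL6A2 (1.09) were higher. THBS1, a matricellular protein and YAP target, was at 0.219, 0.301 and 0.305 FPKM at 1 rpm, against 3.32, 3.5 and 3.34 FPKM in 2D (log2 change -1.78 ± 0.06, adjusted p = 2.5e-09), and COL13A1 was lower (-1.35). THBS1 passed the filter only through the 2D libraries, so it had to lie apart. Of 9 integrins tested of 12 listed, 4 were higher and 4 lower; the median of -0.08 was 0.05 without the filter and 0.07 with quantile normalization. ITGB4 of hemidesmosomes was higher (0.99) and the collagen receptor ITGA2 lower (-0.85). Of 9 epithelial and mesenchymal markers tested of 15 listed, 6 were higher and 2 lower with a median of 0.35. Members of both kinds rose: the epithelial CLDN7 had 28.8 ± 0.924 FPKM at 1 rpm and 15.1 ± 1.13 FPKM in 2D (log2 change 0.89 ± 0.05, adjusted p = 1.5e-07), and the mesenchymal factors ZEB1 (8.53 ± 0.0977 FPKM at 1 rpm and 2.44 ± 0.0857 FPKM in 2D, log2 change 1.47 ± 0.04, adjusted p = 2.2e-09) and SNAI1 (18.5 ± 1.07 FPKM at 1 rpm and 6.45 ± 0.732 FPKM in 2D, log2 change 1.39 ± 0.07, adjusted p = 5.3e-08) were higher as well, but SNAI2 was lower (-0.88). CDH1 did not pass the filter, and CDH2 was not called (0.08). VIM had 2368 ± 24.4 FPKM at 1 rpm and 2609 ± 109 FPKM in 2D (log2 change -0.14 ± 0.04, adjusted p = 0.0051, but 0.28 with quantile normalization).

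Ribosome biogenesis supplies the nucleolar factors that MYC is known to drive. Of 20 genes of the ribosome biogenesis and MYC list 17 were lower and 3 higher, with a median of -0.50. NOP56, a small nucleolar ribonucleoprotein, was at 97.2, 97.5 and 103 FPKM at 1 rpm, against 295, 278 and 284 FPKM in 2D (log2 change -1.52 ± 0.03, adjusted p = 5e-10). RRP9 had 24.4 ± 0.972 FPKM at 1 rpm and 61 ± 1.5 FPKM in 2D (log2 change -1.29 ± 0.04, adjusted p = 1.5e-09). BOP1 had 24.2 ± 1.12 FPKM at 1 rpm and 56.8 ± 1.33 FPKM in 2D (log2 change -1.2 ± 0.04, adjusted p = 3e-09), while MYC and GNL3 (0.59) were among the 3 higher. Cytosolic ribosomal proteins stood near 0: of 74, all tested, 28 were higher and 18 lower, and the median of 0.03 was -0.20 with median-ratio scaling. RPL7 had the largest rise, 389 ± 3.17 FPKM at 1 rpm and 178 ± 7.91 FPKM in 2D (log2 change 1.12 ± 0.03, adjusted p = 2.3e-09); processed copies make single members uncertain. All 14 small nucleolar RNA host genes were higher, with a median of 0.65. GAS5, a noncoding host transcript degraded when it is translated, was at 424, 413 and 405 FPKM at 1 rpm, against 88.8, 102 and 102 FPKM in 2D (log2 change 2.08 ± 0.05, adjusted p = 8.2e-10). SNHG3 had 38.5 ± 0.691 FPKM at 1 rpm and 15.6 ± 0.442 FPKM in 2D (log2 change 1.25 ± 0.03, adjusted p = 1.1e-09).

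Nuclear-retained RNAs and CLK kinase genes were higher, 7 of 7 tested of 10 listed, with a median of 1.71. MALAT1, a noncoding RNA of nuclear speckles, was at 282, 325 and 279 FPKM at 1 rpm, against 25.4, 33 and 25.8 FPKM in 2D (log2 change 3.36 ± 0.09, adjusted p = 1.5e-09). NEAT1, the scaffold of paraspeckles, was at 75.3, 79.1 and 73.2 FPKM at 1 rpm, against 14.8, 16 and 15.9 FPKM in 2D (log2 change 2.21 ± 0.04, adjusted p = 1.6e-10). CLK1, a splicing kinase whose mRNA is partly kept in the nucleus, was at 77.5, 74.8 and 76.8 FPKM at 1 rpm, against 12.1, 12.3 and 11.3 FPKM in 2D (log2 change 2.59 ± 0.04, adjusted p = 5.2e-11). For all 3 the formats did not overlap. Of 488 annotated long noncoding RNAs tested, 281 were higher and 123 lower, with a median of 0.35, against 0.15 over all genes tested.

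**Figure D4:**
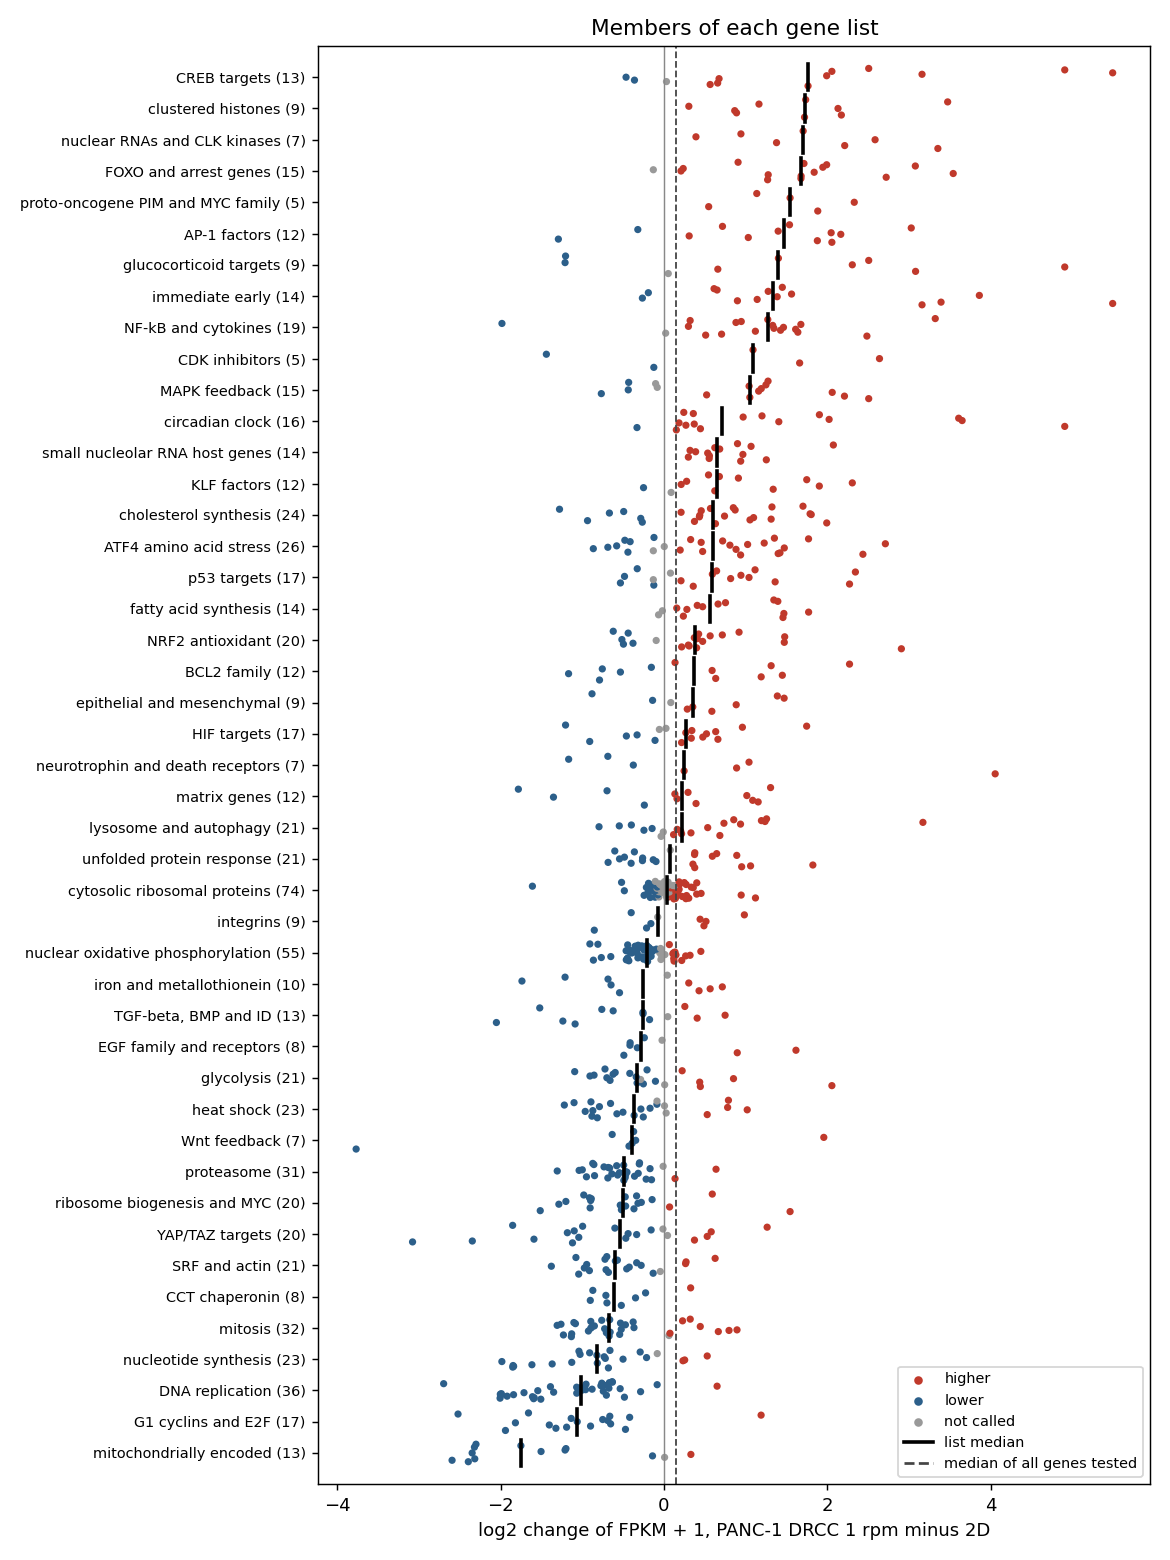
Log2 change of FPKM + 1 between PANC-1 DRCC 1 rpm and 2D for each tested member (points) of the 45 gene lists, with the list median as a black bar and the median of all genes tested as a dashed line at 0.15; red points were called higher, blue lower and grey neither. CREB targets lie highest by median (1.77) and mitochondrially encoded genes lowest (-1.75); the number tested is in parentheses.

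Rotation speed was addressed by setting the 1 rpm libraries directly against those at 30 rpm. They are the same 1 rpm libraries as above, so the changes against 2D and against 30 rpm share samples and are given side by side only. Of 11272 genes tested, 7839 were called (69.5%), 3681 higher at 1 rpm (32.7%) and 4158 lower (36.9%), but at least 2-fold changes were few: 38 higher (0.337%) and 87 lower (0.772%). The median of all genes was -0.02. Of 19 NF-kB genes 13 were higher and 3 lower, with a median log2 change of 1.05 and 10 members at least 2-fold higher. NFKBIA averaged 57.6 ± 1.71 FPKM at 1 rpm and 20.9 ± 1.07 FPKM at 30 rpm (log2 change 1.42 ± 0.04, adjusted p = 7.1e-09). TNFAIP2, a gene induced by TNF, averaged 20.7 ± 0.529 FPKM at 1 rpm and 7.29 ± 0.253 FPKM at 30 rpm (log2 change 1.39 ± 0.04, adjusted p = 5.8e-09). IRF1 averaged 29.4 ± 0.743 FPKM at 1 rpm and 10.2 ± 0.323 FPKM at 30 rpm (log2 change 1.44 ± 0.03, adjusted p = 3.5e-09). CCL2, which was lower at 1 rpm than in 2D, was higher than at 30 rpm (log2 change 1.12).

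Among the genes that led against 2D, NR4A2 averaged 69.9 ± 1.88 FPKM at 1 rpm and 63.3 ± 1.25 FPKM at 30 rpm (log2 change 0.14 ± 0.03, adjusted p = 0.0014) and PER1 averaged 144 ± 4.66 FPKM at 1 rpm and 85.4 ± 0.373 FPKM at 30 rpm (log2 change 0.75 ± 0.03, adjusted p = 3.7e-08). Of 24 cholesterol genes 20 were higher and 3 lower at 1 rpm than at 30 rpm (median 0.33), HMGCS1 by 1.19, and FASN averaged 101 ± 2.86 FPKM at 1 rpm and 37.9 ± 0.462 FPKM at 30 rpm (log2 change 1.39 ± 0.03, adjusted p = 1.2e-09). The ATF4, unfolded protein response and NRF2 lists were mostly lower. Of 27 ATF4 genes 23 were lower and 2 higher (median -0.43), of 21 unfolded protein response genes 16 were lower and 1 higher (median -0.38), and of 20 NRF2 genes 15 were lower and 1 higher (median -0.41). SDF2L1 (-1.12), PSAT1 (-1.22) and HMOX1 (-1.45) had the largest falls of their lists. The heat shock list was split, with 8 of 23 higher and 11 lower (median -0.04); HSPA1A, uncertain beside its near-identical copy HSPA1B, averaged 25.4 ± 0.705 FPKM at 1 rpm and 106 ± 3.15 FPKM at 30 rpm (log2 change -2.02 ± 0.03, adjusted p = 2.8e-10). Clustered histones were lower at 1 rpm than at 30 rpm (10 of 14, with 1 higher and a median of -1.18). H2AC8, a histone gene outside that list and the lower gene of first rank, averaged 2.45 ± 0.597 FPKM at 1 rpm and 19 ± 1.49 FPKM at 30 rpm (log2 change -2.55 ± 0.11, adjusted p = 8.1e-08).

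Mitochondrially encoded genes were higher at 1 rpm than at 30 rpm in 11 of 13 and lower in 0, with a median of 0.78. ND6, which lies on the opposite strand to the other mRNA genes, averaged 119 ± 6.46 FPKM at 1 rpm and 2.42 ± 0.381 FPKM at 30 rpm (log2 change 5.14 ± 0.07, adjusted p = 2.1e-10), and was lowest at 30 rpm among the 4 PANC-1 formats. C15orf48, a small mitochondrial protein induced in inflammation, averaged 8.12 ± 0.647 FPKM at 1 rpm and 2.21 ± 0.520 FPKM at 30 rpm (log2 change 1.52 ± 0.10, adjusted p = 1.2e-06). Of 32 mitosis genes 22 were higher and 5 lower at 1 rpm than at 30 rpm (median 0.25).

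Against AggreWell, a microwell format with no rotation speed in its labels, 11304 genes were tested and 9453 called (83.6%). At 1 rpm 4970 were higher (44.0%) and 4483 lower (39.7%), and the median of all genes tested was 0.03. Container and rotation changed together between 1 rpm and AggreWell and cannot be told apart. The largest rise was that of NR4A2, which averaged 69.9 ± 1.88 FPKM at 1 rpm and 0.935 ± 0.0731 FPKM in AggreWell (log2 change 5.2 ± 0.04, adjusted p = 9.7e-13). PER1, NR1D1 and NGFR followed (log2 4.95, 3.8 and 3.8). Immediate early genes were higher in 13 of 14 with 0 lower (median 1.45), NF-kB genes in 15 of 19 with 1 lower (median 1.21) and cholesterol genes in 18 of 24 with 5 lower (median 0.81). DKK1 averaged 9.57 ± 0.683 FPKM at 1 rpm and 142 ± 2.51 FPKM in AggreWell (log2 change -3.76 ± 0.04, adjusted p = 1.2e-11). ID2 averaged 3.74 ± 0.258 FPKM at 1 rpm and 55.9 ± 0.802 FPKM in AggreWell (log2 change -3.59 ± 0.04, adjusted p = 1.2e-11), with the AggreWell level above that of 2D. FAM111B, a serine protease, averaged 1.41 ± 0.0451 FPKM at 1 rpm and 16.7 ± 0.617 FPKM in AggreWell (log2 change -2.88 ± 0.04, adjusted p = 3e-11).

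All 32 mitosis genes were lower at 1 rpm than in AggreWell (median -0.72), as were 35 of 36 replication genes with 0 higher (median -1.13) and all 31 proteasome genes (median -0.36). CENPF was thus higher than in 2D and lower than in AggreWell (log2 -0.85). Ribosomal proteins were higher than in AggreWell in 71 of 74 with 2 lower (median 0.27), and all 14 small nucleolar RNA host genes were higher (median 0.98). Of 17 HIF targets 11 were lower and 4 higher (median -0.43), NDRG1 averaging 7.12 ± 0.0888 FPKM at 1 rpm and 17 ± 0.344 FPKM in AggreWell (log2 change -1.15 ± 0.03, adjusted p = 1.2e-09).

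Whether PANC-1 and HEK293T responded alike to 1 rpm was tested as an interaction over the 12 libraries of both lines at 1 rpm and in 2D. Of 12931 genes tested, 9684 had a different response (74.9%), 4571 with a higher change in PANC-1 (35.3%) and 5113 with a lower one (39.5%); the median difference was -0.03. NR4A2 averaged 69.9 ± 1.88 FPKM at 1 rpm and 0.576 ± 0.142 FPKM in 2D in PANC-1, but 1.83 ± 0.221 FPKM at 1 rpm and 0.880 ± 0.159 FPKM in 2D in HEK293T (difference of log2 changes 4.91 ± 0.11, adjusted p = 2.5e-12). PER1 averaged 18.7 ± 0.606 FPKM at 1 rpm and 15.1 ± 0.429 FPKM in 2D in HEK293T, where its level in 2D was above that of PANC-1 (difference 4.62 ± 0.08, adjusted p = 2.5e-13). DBP averaged 5.63 ± 0.250 FPKM at 1 rpm and 8.47 ± 0.438 FPKM in 2D in HEK293T, a change in the opposite direction (difference 4.12 ± 0.08, adjusted p = 8.9e-13). IRF1 averaged 2.66 ± 0.0906 FPKM at 1 rpm and 2.64 ± 0.152 FPKM in 2D in HEK293T and was not called there (log2 change 0.01 ± 0.05; difference 3.32 ± 0.06, adjusted p = 6.8e-13). Not every clock gene differed between the lines: for BHLHE40 the difference was 0.04 ± 0.05, adjusted p = 0.47 and for ARNTL 0.02 ± 0.08, adjusted p = 0.85, neither of them called.

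On the lower side, ANKRD1 averaged 5.23 ± 0.146 FPKM at 1 rpm and 0.205 ± 0.0786 FPKM in 2D in HEK293T, a rise where PANC-1 had a fall (difference -4.72 ± 0.07, adjusted p = 2e-13). CCN2 averaged 5.53 ± 0.136 FPKM at 1 rpm and 2.88 ± 0.239 FPKM in 2D in HEK293T (difference -3.83 ± 0.07, adjusted p = 7e-13), and CCN1 had log2 changes of -1.12 in PANC-1 and 1.87 ± 0.05 in HEK293T (difference -2.99 ± 0.05, adjusted p = 2.5e-13). INHBE, an activin subunit, averaged 24.7 ± 0.819 FPKM at 1 rpm and 0.464 ± 0.0496 FPKM in 2D in HEK293T and 0.0641 ± 0.0643 FPKM at 1 rpm and 0.0248 ± 0.0269 FPKM in 2D in PANC-1 (difference -4.08 ± 0.07, adjusted p = 6.8e-13). G0S2, an inhibitor of lipolysis, averaged 17.4 ± 0.358 FPKM at 1 rpm and 0.769 ± 0.247 FPKM in 2D in HEK293T and 0.731 ± 0.354 FPKM at 1 rpm and 0.913 ± 0.122 FPKM in 2D in PANC-1 (difference -3.55 ± 0.18, adjusted p = 3.5e-09). Of 21 YAP/TAZ targets 17 had the lower change in PANC-1 and 2 the higher, with a median difference of -0.72.

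Of 36 replication genes 35 had the lower change in PANC-1 and 0 the higher (median difference -1.2). In HEK293T alone, where 84.3% of 12127 genes were called, 52.5% higher and 31.8% lower, 15 of the 36 were higher and 18 lower with a median of -0.09. Of 32 mitosis genes 31 had the lower change in PANC-1 and 0 the higher (median difference -1.10), and of 18 G1 genes 17 had the lower and 1 the higher (median difference -1.15). E2F1 had log2 changes of -1.82 in PANC-1 and 0.22 ± 0.04 in HEK293T (difference -2.04 ± 0.08, adjusted p = 2.4e-10). Cholesterol genes differed the other way, with a higher change in PANC-1 for 21 of 24 and a lower one for 1 (median difference 1.14); in HEK293T 2 were higher and 18 lower with a median of -0.61. FDFT1, squalene synthase, had log2 changes of 1.1 in PANC-1 and -1.1 ± 0.03 in HEK293T (difference 2.19 ± 0.05, adjusted p = 1.5e-12). The NF-kB list had the higher change in PANC-1 for 15 of 19 and the lower for 1 (median difference 1.03), NFKBIA by 2.91 ± 0.07, adjusted p = 3.8e-12; 9 of its members passed the filter in HEK293T. All 9 clustered histones tested had the higher change in PANC-1 (median difference 1.81). Only 6 of them passed the filter in HEK293T (1 higher, 4 lower, median -0.35), so the others entered through the PANC-1 libraries.

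**Figure D5:**
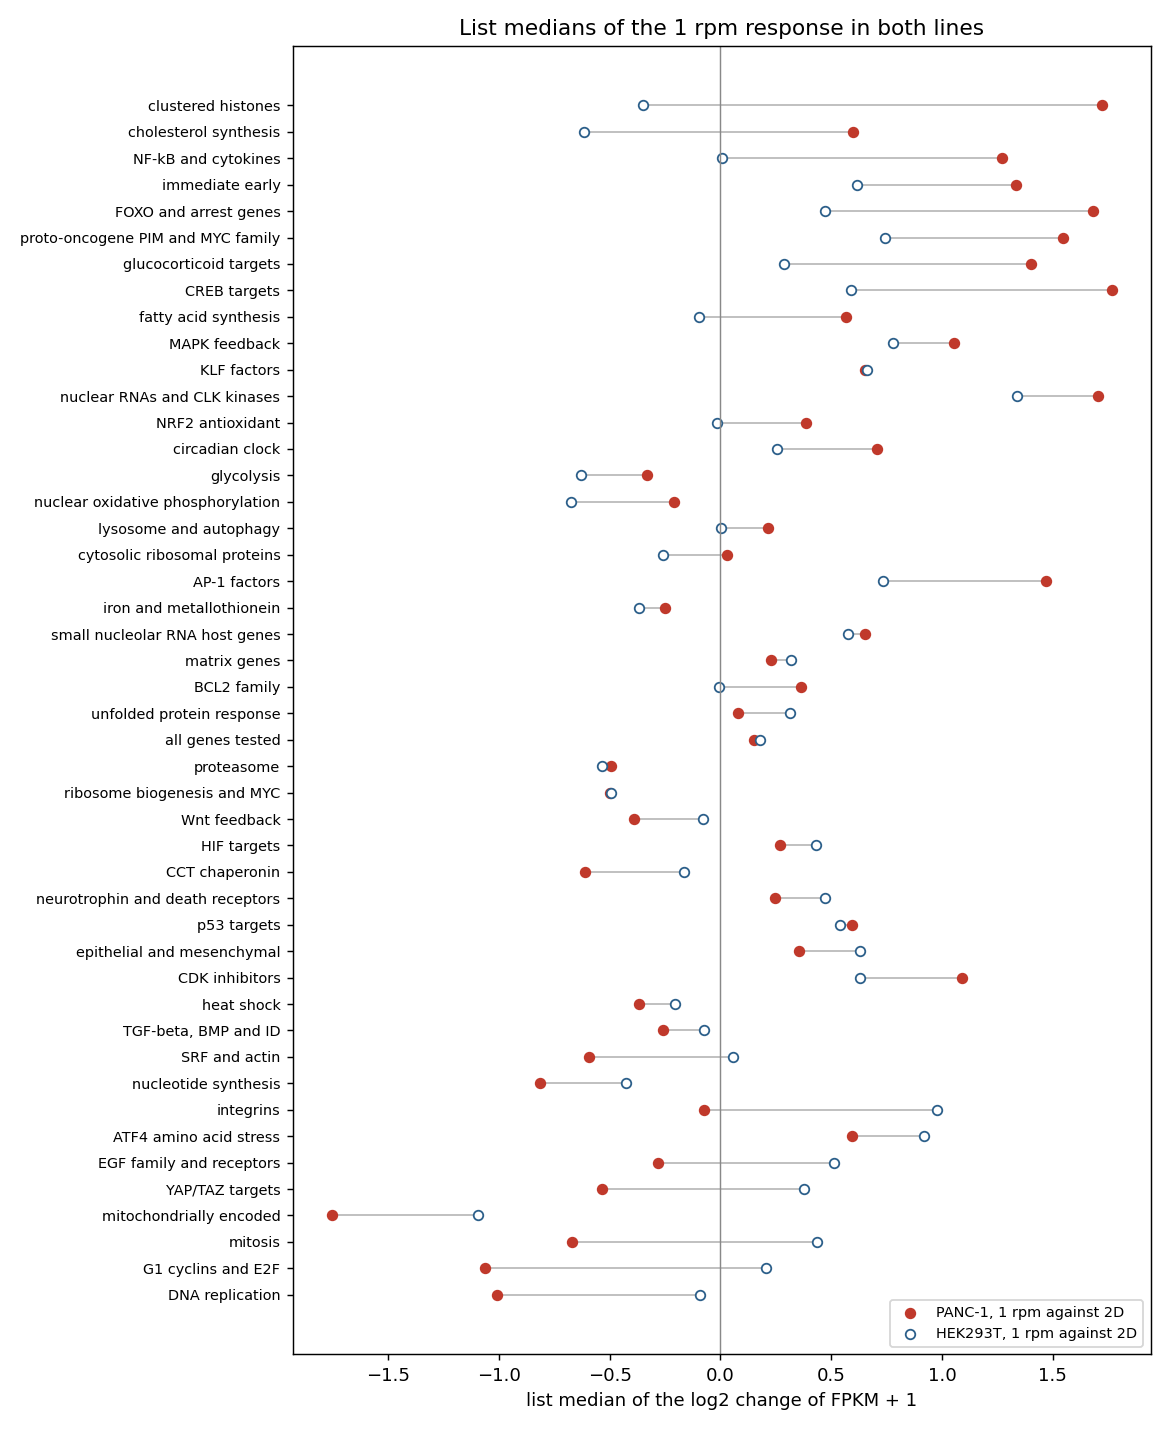
Median log2 change of FPKM + 1 of each gene list between 1 rpm and 2D in PANC-1 (filled red) and in HEK293T (open blue), ordered by the median difference between the lines, each over the members tested. Cholesterol synthesis stands at 0.60 in PANC-1 and -0.61 in HEK293T, and DNA replication at -1.01 in PANC-1 and -0.09 in HEK293T.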

How the data were processed

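RNA sequencing of 24 libraries, 3 per line and format, was used, of which 6 form the comparison. The authors deposited 1 table of FPKM values; the tools listed in the submitters' processing notes are HISAT2, HTSeq, fastp and R 3.2.0, without roles. The build they name is mm10, although the table holds human gene symbols. Per the labels' protocols, TRIzol was used for extraction and the VAHTS Universal V10 kit for the libraries. The sources used here do not give strandedness or poly(A) selection, which leaves overlapping and antisense genes uncertain. FPKM is relative to the total of each library. Whole fragments were recovered from the FPKM steps for 26450 of 26450 genes (tolerance 0.01 fragment), and a count test on them (limma voom) called 9648 genes, 5838 higher and 3810 lower.

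Genes with FPKM of at least 1 in at least 3 of the libraries compared were tested on log2(FPKM + 1), with a pseudocount of 1, by limma 3.58.1 (R 4.3.3), its variance trended on intensity. P-values were adjusted by Benjamini-Hochberg over all genes tested, with a threshold of 0.05. Tables and figures were made with Python 3.11.15, pandas 2.3.3 and matplotlib 3.10.9. On simulated data of PANC-1 DRCC 1 rpm against 2D with 11142 genes, the fit recovered 99 of 100 simulated 1.5-fold changes, all 100 of the 2-fold ones, and made 9 false calls. Changes were simulated only in genes above about 5 FPKM in 2D, so the recovery does not cover lower genes. All other genes were left unchanged, unlike the data, where 86.1% were called. No sample columns were left unmapped (0 columns). Genes were named by rank: the 15 called protein-coding genes with the largest change in each direction, with a mean of at least 5 FPKM in the higher format and no overlap, and 6 in each direction for the other comparisons, besides members of the lists. The members, lists and motifs were chosen with earlier results of these data known. ARNTL stands in the table for the listed BMAL1, matched through RefSeq synonyms; some list members are counted but not reported here by name; TUG1, NEFM, PRSS1, INS and SST were not analysed here. Promoter sequences are from RefSeq, GRCh38.p14. The alternatives tried were another pseudocount and filter, other scalings, another variance model, voom, a replicate block and leaving out each library.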

Additional observations from a re-analysis of the deposited data

Results flagged for a closer look

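The response to 1 rpm differed between PANC-1 and HEK293T in 9684 genes by the interaction test. The difference of log2 changes, PANC-1 minus HEK293T, was 4.91 for NR4A2, 4.62 for PER1, 4.12 for DBP, 3.32 for IRF1, 3.2 for ZFP36 and 3.18 for NR1D1. It was -4.72 for ANKRD1, -4.11 for DKK1, -4.08 for INHBE, -3.83 for CCN2, -3.55 for G0S2 and -3.44 for TCIM. These 12 were picked by rank among the genes tested, so their sizes are descriptions of the extremes. Samples far from the rest of their group were not looked for, since each group has 3 libraries.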

How the results depend on the processing

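Leaving out each library in turn gave 9285 to 9558 called genes, 5621 to 5746 higher and 3636 to 3857 lower, and 25 of 45 lists above the median of all genes each time (24 to 28 under other settings). It gave 7308 to 7518 genes against 30 rpm, 9151 to 9260 against AggreWell and 9360 to 9719 for the line difference. The 30 named genes kept their call wherever they were tested; a mean of at least 5 FPKM left 29 of them, without FOXQ1, and leaving out the mitochondrially encoded genes left 25. Over genes with a mean of at least 5 FPKM, which are fewer, 3408 were higher and the line difference numbered 6144, 3118 higher and 3026 lower. With the replicate number as a block, 9542 genes were called (5779 higher, 3763 lower), and 7700 against 30 rpm, 9374 against AggreWell and 9876 for the line difference; deviations of same-numbered libraries correlated at -0.01, 0.123 and -0.104, so the numbers were not treated as pairs. Of 4254 alternatives over 278 gene values, 4168 kept direction and side of the threshold. List medians, 70 over the 45 lists and the comparisons, moved by more than 1 SD between libraries in 328 alternatives, by less in 681, and changed sign in 8.

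These values changed sign, and the cause was not tested. List medians became -0.063 for neurotrophin and death receptors and 0.067 for integrins with quantile normalization, 0.05 for integrins without the filter, -0.154 for the BCL2 family and -0.009 for the unfolded protein response over genes of at least 5 FPKM, and -0.155 for the unfolded protein response, -0.203 for cytosolic ribosomal proteins and -0.016 for lysosome and autophagy with median-ratio scaling. With median-ratio scaling the log2 change was -0.122 for CDH2, -0.167 for CDK1, -0.018 for CLOCK, -0.148 for FKBP5, -0.207 for HSP90AA1, -0.228 for HSPD1, -0.089 for KLF2, -0.227 for ND4, -0.19 for NFKB1, -0.033 for PSAT1, -0.179 for TEAD1 and -0.002 for VEGFA. With quantile normalization it was 0.003 for ACLY, 0.314 for ACTG1, -0.148 for CDH2, -0.207 for CLOCK, 0.144 for CTSL, 0.16 for ELOVL5, -0.215 for FKBP5, -0.256 for KLF2, 0.189 for LAMP1, -0.169 for NFKB1, -0.096 for PER2, -0.039 for TEAD1 and 0.281 for VIM. With mitochondrially encoded genes left out it was 0.007 for ACLY, 0.066 for CTSL, 0.056 for ELOVL5 and 0.04 for LAMP1. Without 1 library, CTSL ranged over -0.019 to 0.008, HSPD1 ranged over -0.022 to 0.024, ND4 ranged over -0.024 to 0.06 and NFKB1 over -0.02 to 0.049.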
